A study of Mus musculus with 9 samples.

Results

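Expression of 36 glycolysis and hypoxia response genes was examined in cultures of neural stem cells (NSCs) from the subependymal zone (SEZ), the neurogenic niche that lines the lateral ventricles of the adult mouse brain. The 36 genes were picked by name and not by a threshold on their values, but with earlier results of these data known. All 36 were found among the 48526 genes of the count table. They comprise 2 glucose transporters, 3 genes of the first steps of glycolysis, 3 phosphofructokinases, 3 regulators of phosphofructokinase, 9 enzymes from aldolase to pyruvate kinase, 4 genes of lactate handling, 3 pyruvate dehydrogenase kinases, 4 genes for hypoxia-inducible factors (HIFs) and their hydroxylases, and 5 HIF targets. The cells came from C57BL/6 mice (C57BL/6J in the study's methods), had been expanded as neurospheres with EGF and FGF, and were then made to differentiate for 0 h, 1 h or 6 h on an adhesive Matrigel coat with FGF but without EGF. Each time point had 3 replicates, labelled B, C and D and called replicates 1, 2 and 3 here, so that 9 libraries of stranded mRNA were counted. For cells fixed at early times the methods describe seeding in medium with EGF ahead of the induction, and whether this also held for the RNA libraries is not stated, so the shares of attachment, fresh medium and loss of EGF in any change with time cannot be told apart. Oxygen was not a variable of the labels, and each time point comes from cultured primary cells and not from tissue.

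Glycolysis splits glucose into pyruvate through a fixed chain of enzymes, most of which are encoded by several related genes, and pyruvate then either enters mitochondria through the pyruvate dehydrogenase complex or is reduced to lactate. Pyruvate dehydrogenase kinases switch that complex off, and the phosphatases of the complex switch it on again. HIF factors are dimers whose alpha subunits are marked for destruction by oxygen-dependent prolyl hydroxylases, and in low oxygen they drive many genes of glycolysis together with vascular and mitophagy genes. Neural progenitors are known for strong glycolysis, whereas neurons rely more on mitochondrial respiration.

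Total counts were between 65871454 and 105592597 per library, of which the 36 genes together took 0.819% to 0.966% and mitochondrial genes 2.858% to 3.584%. The labels were checked against marker genes. All 8 NSC markers passed the filter on low counts. Their summed level was 7616 to 9040 CPM at 0 h and 6652 to 8299 CPM at 6 h (CPM, counts scaled to 1e+06 per library). Nes, Vim and Fabp7 carried most of this sum, and their means were lower at 6 h than at 0 h. The means of Sox2, Egfr, Olig2, Sox9 and Notch1 were higher at 6 h, so the sum does not describe all 8 markers. Of 6 microglial markers, Itgam had no count in any library and the summed level of the list was at most 0.526 CPM. Of 5 endothelial markers, Cdh5 and Cldn5 had 8 and 2 counts over all libraries. The other 3, Kdr, Tek and Pecam1, passed the filter, with 1567, 654 and 178 counts. The 5 endothelial markers summed to between 3.35 and 5.27 CPM at 0 h and between 1.97 and 3.69 CPM at 6 h. The 5 markers of neuroblasts and neurons summed to between 19.5 and 38.6 CPM at 0 h, between 26.0 and 41.7 CPM at 1 h and between 58.4 and 121 CPM at 6 h, with no overlap between 0 h and 6 h, although Dcx, the classic neuroblast marker, was at 1.08 CPM at 0 h and 0.811 CPM at 6 h. Syt1, a synaptic vesicle protein, carried most of that sum with means of 22.8 and 70.3 CPM, and without it the other 4 markers overlapped, at 5.17 to 12.8 CPM before and 7.93 to 23.5 CPM after 6 h. Summed levels were 1.01 to 4.1 CPM at 0 h and 1.24 to 7.29 CPM at 6 h for 4 pericyte markers, 45.6 to 86.7 CPM and 37.2 to 59.1 CPM for 3 ependymal markers, and 1.20 to 2.45 CPM and 1.19 to 2.26 CPM for 4 markers of mature oligodendrocytes. Of the ependymal list, Foxj1 carried most of the level and Tmem212 had 4 counts in all. The part of these shifts in the results below was not tested, and in bulk RNA fewer cells of a type cannot be told apart from less RNA per cell.

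After subtraction of the time point means, libraries with the same replicate letter resembled each other, so each comparison was fitted with the letter as a block and adjusted over all 18858 genes that passed the filter on low counts. A gene was called at an adjusted p under 0.05, and the error of a log2 fold change is its standard error (SE). Of the 36 genes, 35 passed the filter. Car9, a carbonic anhydrase used as a classic reporter of hypoxia, did not pass it and had between 1 and 25 counts per library, with no more than 0.358 CPM in any of them. In the fit without the block, no member was called in any comparison, and the adjusted p of that fit is therefore given with each named call.

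Levels were compared between genes per kilobase (kb) of exon. Averaged over the 9 libraries, Pkm, which makes pyruvate, was highest with 375 CPM per kb, followed by Gapdh with 353, Pgk1 with 252, Eno1 with 213, Aldoc with 192, Aldoa with 176 and Ldhb with 160 CPM per kb. The 6 highest levels thus belonged to the chain from aldolase to pyruvate kinase, while Eno2, the enolase of neurons, was at 1.86 CPM per kb. Among the HIF genes, Hif1a was at 39.8 CPM per kb and Epas1, which encodes HIF-2 alpha, at 3.51 CPM per kb. Slc16a3, Pdk4, Ankrd37 and Car9 were lowest, at 0.154, 0.339, 0.247 and 0.0396 CPM per kb. Transcripts of Gapdh, Eno1, Pgk1, Ldha, Tpi1, Pgam1, Aldoa and Pkm have near-identical processed pseudogenes in the mouse genome, so reads of these genes may have been split or dropped by the counting. Exons that overlap another gene make the reads there uncertain. An opposite-strand gene covers 22.7% of the exonic bases of Ankrd37 (Lrp2bp), 22.3% of those of Bnip3 (Gm45507, at 0 counts) and 11.5% of those of Gpi1 (Gm26762), where the strand setting of the counting matters, which is not given in the sources used here. Smaller overlaps also lie with opposite-strand genes that had more counts than the member. Pitrm1 (89897 counts over all libraries) covers 5.6% of Pfkp (37183 counts), and Ufsp2 (27093 counts) covers 3.7% of Ankrd37 (273 counts). A gene on the same strand covers 17.4% of the exonic bases of Pfkfb2 (Gm29427) and 10.2% of those of Pfkm (Gm26513), which no strand setting can separate. In the annotation used here, Gm49759 on the same strand covers 15.3% of those of Pkm. It has no row in the count table, so no reads were assigned to it there.

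**Figure D1:**
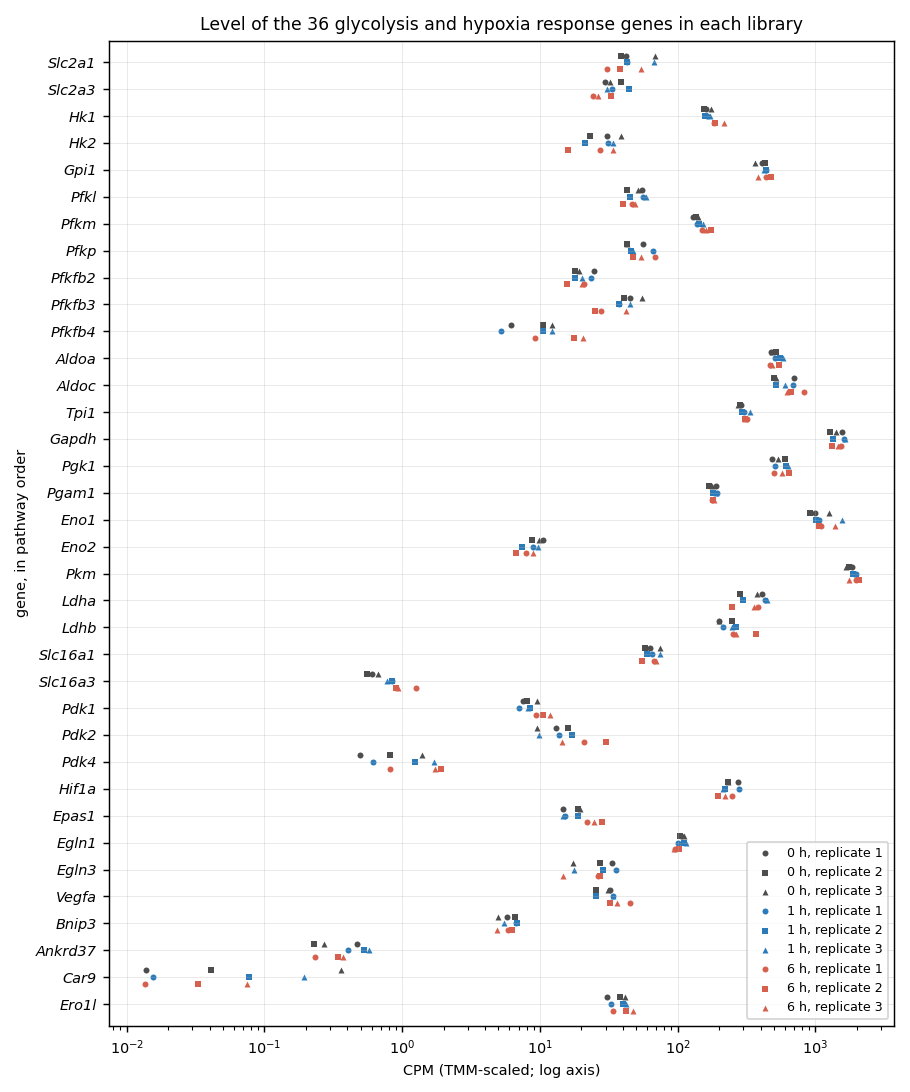
CPM on a log axis for each of the 36 genes (rows, in pathway order), with 1 point per library, coloured by time point and shaped by replicate. Pkm lies between 1664 and 2062 CPM in the 9 libraries, whereas Car9 lies between 0.0136 and 0.358 CPM.

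Promoter windows from RefSeq (build GRCm38.p6, 250 bases before to 50 after a start) were found for 33 of the 36 genes, in 50 windows. HIF dimers bind a core of ACGTG or GCGTG, and both were searched on both strands. At least 1 window held ACGTG in 23 of the 33 genes and GCGTG in 21, and either core was found in 30 of 33, compared with 21.8%, 35.2% and 46.7% of all 27025 genes with a window. GC content of the members' windows ranged from 36.7% to 86.0% and some genes had more than 1 window, and neither property was matched in those shares. The E-box CACGTG, which contains ACGTG and is bound by other factors of the same protein class, was found in 8 of the 33 genes and in 8.09% of all genes. A match of these letters is a description of the window and does not show that a factor binds there. The windows of 2 pairs of related genes are printed, in each of which 1 gene rose and the other fell between 1 h and 6 h, as given further on. Pfkm and Pfkl moved apart in the same way, and their windows are described but not printed. Ldha and Pfkfb3 each have a second window, which is not printed and holds fewer matches than the printed one. For Pfkfb3, that second window spans the annotated start of the gene, and the printed one lies further inside the gene. Capitals mark ACGTG and GCGTG on either strand, which read as CACGT and CACGC on the printed strand when they lie on the other.
Ldha, chr7:46845554-46845853, plus strand: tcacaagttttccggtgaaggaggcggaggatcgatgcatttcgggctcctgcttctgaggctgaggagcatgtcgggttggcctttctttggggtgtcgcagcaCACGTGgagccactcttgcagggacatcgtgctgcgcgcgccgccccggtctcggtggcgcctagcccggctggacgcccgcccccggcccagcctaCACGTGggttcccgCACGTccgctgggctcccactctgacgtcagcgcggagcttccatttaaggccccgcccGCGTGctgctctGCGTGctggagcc
Ldhb, chr6:142507908-142508207, minus strand: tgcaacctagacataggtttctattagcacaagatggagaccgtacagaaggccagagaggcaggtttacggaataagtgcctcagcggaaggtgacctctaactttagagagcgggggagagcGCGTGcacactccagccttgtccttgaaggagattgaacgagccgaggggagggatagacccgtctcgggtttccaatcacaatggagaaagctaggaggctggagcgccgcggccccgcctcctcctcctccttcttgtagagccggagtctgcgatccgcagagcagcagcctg
Pfkfb3, chr2:11502041-11502340, minus strand: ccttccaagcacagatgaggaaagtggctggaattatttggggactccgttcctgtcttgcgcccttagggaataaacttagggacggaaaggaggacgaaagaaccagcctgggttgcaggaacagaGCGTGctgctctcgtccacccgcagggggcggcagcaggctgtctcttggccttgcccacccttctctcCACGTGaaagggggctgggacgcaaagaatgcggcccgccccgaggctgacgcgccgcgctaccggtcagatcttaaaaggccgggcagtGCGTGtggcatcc
Pfkfb4, chr9:108991652-108991951, plus strand: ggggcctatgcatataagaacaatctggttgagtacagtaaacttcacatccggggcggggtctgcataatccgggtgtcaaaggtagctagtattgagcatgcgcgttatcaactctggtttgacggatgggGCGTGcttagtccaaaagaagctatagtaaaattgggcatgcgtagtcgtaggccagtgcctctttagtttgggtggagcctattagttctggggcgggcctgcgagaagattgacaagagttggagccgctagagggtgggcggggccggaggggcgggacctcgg
The printed Ldha window held 5 matches to ACGTG, of which 4 are both strands of 2 E-boxes, and 2 matches to GCGTG. The second Ldha window, further downstream, held 2 matches to GCGTG and none to ACGTG. The Ldhb window held 1 match to GCGTG and none to ACGTG. The printed Pfkfb3 window held 2 matches of each core, of which the ACGTG matches are the 2 strands of 1 E-box. The second Pfkfb3 window held 1 match to ACGTG and none to GCGTG, and the Pfkfb4 window held 1 match to GCGTG. In the pair not printed, Pfkm, which rose, had 3 matches to ACGTG in 1 window, of which 2 are both strands of 1 E-box. Another Pfkm window held 1 match to each core. A further window overlapped that one and held the same GCGTG match, and the last window held none. The window of Pfkl, which fell, held 1 match to GCGTG and none to ACGTG.

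At 1 h, no member was called in either direction by edgeR with the block, whereas 1.36% of all tested genes were called higher and 2.14% lower, 3.51% together. At an unadjusted p under 0.05, 10 of the 35 members were higher and 1 was lower. The share of all genes at that unadjusted threshold was not counted, with or without the block, so no excess can be read from such counts. DESeq2 with the block called 1 member higher, Eno1 (adjusted p = 0.0251), and none lower, and DESeq2 without the block called none. The log2 fold change was above 0 in 27 of 35 members and below 0 in 8, with a median of 0.08 beside 0.0007 over all genes. The median absolute log2 fold change was 0.10 for the members and 0.11 for all genes. Without the block, edgeR called 0.0424% of all genes at 1 h and no member, and no member had an unadjusted p under 0.05 there.

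In all 9 genes from aldolase to pyruvate kinase, the change from 0 h to 1 h was most positive in replicate 3. This was so in 16 of all 35 members. The share of all tested genes was not counted, so the order cannot be called particular to this chain. For Eno1, which converts phosphoglycerate to phosphoenolpyruvate, the change was 0.09, 0.15 and 0.30 on the log2 scale in replicates 1, 2 and 3. For Ldhb it was 0.08, 0.10 and 0.31, and for Tpi1 it was 0.07, 0.07 and 0.30. Values for Slc2a1, Slc2a3 and Hk1 did not share this order, with changes of -0.02, -0.06 and -0.04 in replicate 3. The most negative 1 h value was that of Pfkfb3, a kinase that raises the allosteric activator of phosphofructokinase, at -0.22 ± 0.08 (adjusted p = 0.145), lower in 3 of 3 replicates. It was called at 1 h when the 6 h library of replicate 3 was left out or with no filter on low counts, and the threshold was missed in the other leave-one-out fits.

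At 6 h, 15 of 35 members were higher than at 0 h and 6 were lower, and the other 14 did not pass the test. Over all tested genes, 17.4% were higher and 17.5% lower, 34.9% together. All 21 calls had the same direction in 3 of 3 replicates, with log2 fold changes from -0.59 to 0.75. The median absolute log2 fold change of the members was 0.19, close to the 0.20 of all genes, and their median log2 fold change was 0.09 beside -0.0001. The 3 libraries of 6 h did not overlap those of 0 h in 7 members, compared with 25.0% of all tested genes. Without the block, edgeR called 2.42% of all genes and no member. At an unadjusted p under 0.05, 7 members were higher and 1 was lower in that fit, and the share of all genes was not counted. DESeq2 without the block called Pfkm and Slc16a3 higher. Leaving out the 1 h library of replicate 3 raised the counts to 18 higher and 10 lower, and leaving out the 0 h library of replicate 1 reduced those lower to 3. Of the 21 calls, 12 held in all 9 leave-one-out fits. The summed level of the markers of neuroblasts and neurons also stood apart between these times, at 19.5 to 38.6 CPM against 58.4 to 121 CPM, largely through Syt1, and its part in the counts was not tested.

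Between 1 h and 6 h, 9 members rose and 7 fell, compared with 18.0% and 17.5% of all genes and 35.6% in either direction. All 16 had the same direction in 3 of 3 replicates, and 12 of them held in all 9 leave-one-out fits. Without the block, edgeR called 2.14% of all genes and no member at this step. At an unadjusted p under 0.05, 3 members were higher and none lower in that fit, and the share of all genes was not counted. DESeq2 without the block called Epas1 and Pdk1 higher. The comparisons share libraries, so their calls are not independent of each other.

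**Figure D2:**
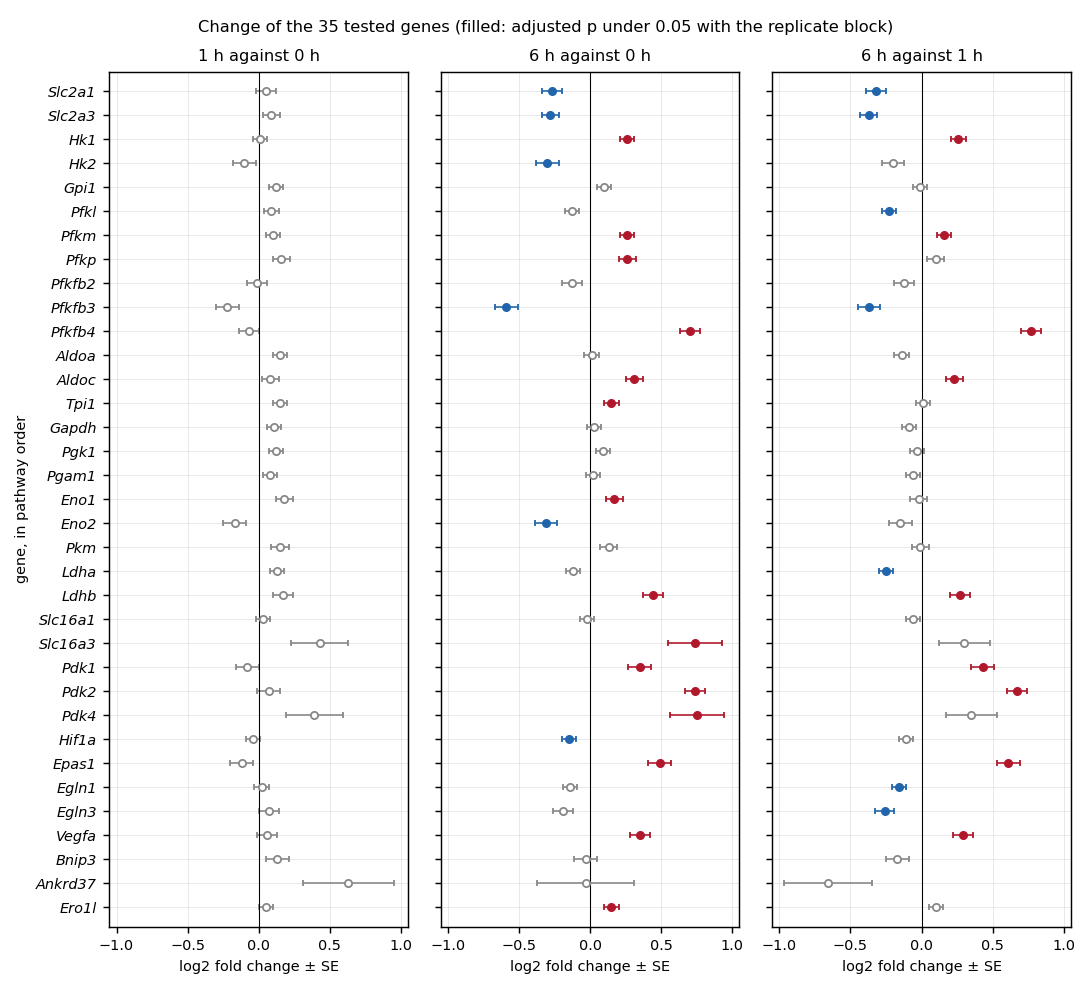
Log2 fold change with its SE for the 35 tested genes (rows, in pathway order) in the 3 comparisons, filled red for higher and blue for lower at an adjusted p under 0.05 with the block, open grey otherwise. No symbol is filled at 1 h, 21 are filled for 6 h against 0 h and 16 for 6 h against 1 h.

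Both glucose transporters fell at 6 h. Slc2a1, the broadly used transporter GLUT1, was at 42.3, 38.5 and 68.6 CPM in replicates 1, 2 and 3 at 0 h, at 43.1, 42.7 and 67.5 CPM at 1 h and at 30.7, 38.3 and 54.5 CPM at 6 h. Each replicate was lowest at 6 h, but replicate 3 stood above the others at all times and the groups overlapped. The change was -0.27 ± 0.07 against 0 h (adjusted p = 0.0124, or 0.721 without the block) and -0.32 ± 0.07 against 1 h (0.00469, or 0.667 without the block). The call against 0 h was lost in 3 of the 9 leave-one-out fits (0 h replicate 1, 0 h replicate 3 and 6 h replicate 1), with an adjusted p up to 0.101. Slc2a3, the high-affinity transporter GLUT3 of neurons, was at 29.9, 38.9 and 32.1 CPM at 0 h, 33.3, 44.1 and 30.7 CPM at 1 h and 24.1, 33.0 and 26.2 CPM at 6 h. Its change was -0.28 ± 0.06 against 0 h (adjusted p = 0.00351, or 0.481 without the block) and -0.37 ± 0.06 against 1 h (5.1e-04, or 0.316), and both calls held in all 9 leave-one-out fits.

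The hexokinases, which trap glucose in the cell as glucose 6-phosphate, split by isoform. Hk1, the constitutive form, was at 160, 156 and 176 CPM at 0 h, 164, 159 and 171 CPM at 1 h and 184, 188 and 218 CPM at 6 h, so that every 6 h library lay above every earlier one. It rose by 0.26 ± 0.05 against 0 h (adjusted p = 0.00108, or 0.153 without the block) and by 0.26 ± 0.05 against 1 h (0.00131, or 0.162). Hk2, the inducible form of growing cells, went from 30.7, 23.1 and 39.0 CPM at 0 h through 31.4, 21.3 and 33.8 CPM to 27.2, 16.1 and 33.7 CPM at 6 h. The groups of Hk2 overlapped, and its change of -0.30 ± 0.08 against 0 h (adjusted p = 0.00884, or 0.734 without the block) was lost without the 0 h or the 6 h library of replicate 2 (up to 0.0868). Gpi1, the isomerase of the next step and the most abundant gene of this group, had 412, 427 and 363 CPM at 0 h, 439, 439 and 422 CPM at 1 h and 438, 474 and 382 CPM at 6 h. Its change at 6 h was 0.10 ± 0.05 (adjusted p = 0.152).

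Phosphofructokinase commits sugar to glycolysis, and of its 3 genes 2 rose from 0 h to 6 h. Pfkm, the muscle-type subunit and here the most abundant, was at 130, 135 and 140 CPM at 0 h, 138, 144 and 153 CPM at 1 h and 149, 176 and 161 CPM at 6 h, without overlap between 0 h and 6 h. The rise was 0.26 ± 0.05 against 0 h (adjusted p = 0.00198, or 0.129 without the block) and 0.16 ± 0.05 against 1 h (0.0306, or 0.344), the latter lost without the 1 h library of replicate 1 or 2 or the 6 h library of replicate 2 (up to 0.164) and with GC content and length trends removed (0.0767). Pfkp, the platelet-type subunit, rose by 0.26 ± 0.06 against 0 h (adjusted p = 0.00301, or 0.547 without the block). Pfkl, the liver-type subunit, had -0.13 ± 0.05 against 0 h (adjusted p = 0.0757) and fell by 0.23 on the log2 scale, with an SE of 0.05, against 1 h (0.00562, or 0.436 without the block).

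The PFKFB enzymes make and break fructose 2,6-bisphosphate, the strongest activator of phosphofructokinase, and the 2 that changed went in opposite directions. Pfkfb3, whose product is mainly a kinase, had 45.0, 40.8 and 55.5 CPM at 0 h, 37.7, 37.5 and 45.4 CPM at 1 h and 27.6, 25.1 and 42.2 CPM at 6 h. It declined at each step in each replicate, and the overlap between 0 h and 6 h came from the 6 h library of replicate 3. The change was -0.59 ± 0.08 against 0 h, a fold of 0.66 (adjusted p = 7.5e-05, or 0.184 without the block), and -0.37 ± 0.08 against 1 h (0.00236, or 0.441). Pfkfb4 had 6.15, 10.5 and 12.3 CPM at 0 h, 5.22, 10.5 and 12.2 CPM at 1 h and 9.27, 17.6 and 20.6 CPM at 6 h. Replicate 1 was low throughout, and each replicate was highest at 6 h. It was 0.70 ± 0.07 against 0 h, a fold of 1.62 (adjusted p = 1.2e-05, or 0.421 without the block), and 0.77 ± 0.07 against 1 h (5.8e-06, or 0.384). Pfkfb2, the heart-type gene, had -0.13 ± 0.07 at 6 h (adjusted p = 0.185). The ratio of Pfkfb4 to Pfkfb3 CPM, a pair picked after the values were seen, went from 0.137, 0.258 and 0.221 at 0 h to 0.336, 0.700 and 0.488 at 6 h in replicates 1, 2 and 3. The promoter windows of this pair are among those printed above.

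Of the 9 genes from aldolase to pyruvate kinase, 3 rose, 1 fell and 5 did not pass the test from 0 h to 6 h. Aldoc, the aldolase of brain and of astrocytes, was at 697, 498 and 521 CPM at 0 h, 691, 515 and 600 CPM at 1 h and 822, 667 and 626 CPM at 6 h. It rose by 0.31 ± 0.06 (adjusted p = 0.00152, or 0.411 without the block), and by 0.23 ± 0.06 against 1 h (0.0099, or 0.550), the latter lost without the 1 h library of replicate 1 or 2 or the 6 h library of replicate 2 (up to 0.0628). Aldoa, the widely expressed aldolase, had 0.01 ± 0.05 at 6 h (adjusted p = 0.946). Eno1 rose by 0.17 ± 0.06 (0.0348) and Tpi1, the triose phosphate isomerase, by 0.15 ± 0.05 (0.0447), with 0.766 and 0.296 without the block. Both calls were lost with GC content and length trends removed (0.188 and 0.0656) and were kept in 4 and 3 of the 9 leave-one-out fits, the losses including each 0 h library, and 6 h replicates 1 and 2, for both genes and 1 h replicate 2 for Tpi1, with an adjusted p up to 0.147 and 0.230. Eno2 fell by 0.31 on the log2 scale, with an SE of 0.08 (adjusted p = 0.0079, or 0.356 without the block), and this call was lost without the 0 h library of replicate 1 or 2 (up to 0.0656).

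The 3 most abundant genes of the chain per kb, Pkm, Gapdh and Pgk1, did not pass the test at 6 h. Pkm had 1844, 1760 and 1664 CPM at 0 h, 1976, 1866 and 1976 CPM at 1 h and 1961, 2062 and 1751 CPM at 6 h. The 1 h libraries lay above the 0 h libraries without overlap, and its log2 fold change was 0.15 ± 0.06 at 1 h (adjusted p = 0.212) and 0.13 ± 0.06 at 6 h (0.105). Gapdh, with 3 libraries each, had a mean and SD of 1414 ± 145 CPM before and 1439 ± 109 CPM after 6 h, and its log2 fold change was 0.03 ± 0.05 (adjusted p = 0.726). Pgk1 and Pgam1, which follow Gapdh in the chain, had 0.09 ± 0.05 and 0.02 ± 0.05 at 6 h (adjusted p = 0.225 and 0.842).

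Lactate dehydrogenase showed opposite values for its subunits. Ldhb, the subunit that favours the conversion of lactate to pyruvate, was at 201, 246 and 200 CPM at 0 h, 212, 264 and 248 CPM at 1 h and 251, 371 and 264 CPM at 6 h. The 0 h and 6 h libraries did not overlap, and replicate 2 was highest throughout. The rise was 0.44 ± 0.07 against 0 h, a fold of 1.36 (adjusted p = 2.8e-04, or 0.192 without the block), and 0.27 ± 0.07 against 1 h (0.00679, or 0.416). Ldha, which favours the formation of lactate, was at 410, 283 and 374 CPM at 0 h, 429, 296 and 444 CPM at 1 h and 380, 250 and 356 CPM at 6 h. It was lower at 6 h than at 1 h, by -0.25 ± 0.05 (adjusted p = 0.00237, or 0.637 without the block), and had -0.12 ± 0.05 against 0 h (0.0845). With GC content and length trends removed, Ldha also passed against 0 h (0.00541). The ratio of Ldhb to Ldha CPM, again a pair picked after the values were seen, went from 0.490, 0.867 and 0.535 at 0 h to 0.661, 1.49 and 0.740 at 6 h, so it was higher in each replicate. Their promoter windows are printed above.

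Of the monocarboxylate transporters, which move lactate across the membrane, Slc16a1 had -0.02 ± 0.05 at 6 h (adjusted p = 0.8). Slc16a3, the exporter typical of highly glycolytic cells, was very low, with 41 to 100 counts per library and 0.608, 0.554 and 0.673 CPM at 0 h, 0.844, 0.843 and 0.779 CPM at 1 h and 1.25, 0.902 and 0.933 CPM at 6 h. The 3 time points did not overlap. The change against 0 h was 0.74 ± 0.19, a fold of 1.66 (adjusted p = 0.0098, or 0.0968 without the block, the smallest of any member in that fit for 6 h against 0 h), and it was lost without the 0 h or the 6 h library of replicate 1 (up to 0.0632).

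All 3 pyruvate dehydrogenase kinases of the set, Pdk1, Pdk2 and Pdk4, rose from 0 h to 6 h. The fourth kinase of the family, Pdk3, is in a comparison list and was named after its values were seen, with 26.4 CPM at 0 h, 26.6 CPM at 1 h and 27.0 CPM at 6 h and a 6 h change of 0.03 ± 0.06 on the log2 scale (adjusted p = 0.758). Per kb, Pdk3 was the most abundant of the 4 at 10.4 CPM per kb, beside 5.09 for Pdk2. Pdk2, the most abundant in the set, had 13.1, 15.9 and 9.57 CPM at 0 h, 13.8, 17.0 and 9.83 CPM at 1 h and 21.0, 30.2 and 14.5 CPM at 6 h. The order of the replicates stayed the same at each time, and the groups overlapped because replicate 3 was low. The rise was 0.74 ± 0.07 against 0 h, a fold of 1.68 (adjusted p = 8.9e-06, or 0.237 without the block), and 0.67 ± 0.07 against 1 h (2.1e-05, or 0.291). Pdk1, which HIF-1 is known to induce, had 7.49, 8.08 and 9.45 CPM at 0 h, 7.03, 8.43 and 8.18 CPM at 1 h and 9.38, 10.6 and 11.9 CPM at 6 h, with every 6 h library above every 1 h library. It rose by 0.35 ± 0.08 against 0 h (adjusted p = 0.00336, or 0.247 without the block) and by 0.43 ± 0.08 against 1 h (9.3e-04, or 0.165). Pdk4, a kinase induced by fasting and by FOXO factors in other tissues, had 36 to 186 counts per library and went from 0.498, 0.811 and 1.39 CPM at 0 h through 0.609, 1.24 and 1.70 CPM to 0.814, 1.91 and 1.74 CPM at 6 h. Its rise of 0.75 ± 0.19 (adjusted p = 0.00817, or 0.526 without the block) was lost without the 0 h or the 6 h library of replicate 2 (up to 0.0809).

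The HIF alpha subunits also differed in direction. Epas1 was at 14.6, 19.0 and 19.6 CPM at 0 h, 15.2, 18.9 and 14.8 CPM at 1 h and 21.9, 28.2 and 24.5 CPM at 6 h, every 6 h library lying above every earlier one. The rise was 0.49 ± 0.08 against 0 h, a fold of 1.4 (adjusted p = 4.4e-04, or 0.149 without the block), and 0.61 ± 0.08 against 1 h (9.1e-05, or 0.0936). Hif1a, the more abundant of them per kb, was at 272, 231 and 233 CPM at 0 h, 281, 221 and 214 CPM at 1 h and 246, 196 and 221 CPM at 6 h. The groups of Hif1a overlapped, and its change of -0.15 ± 0.05 against 0 h (adjusted p = 0.0448, or 0.636 without the block) was lost in 7 of the 9 leave-one-out fits, that is in all but those lacking replicate 3 of 1 h or 6 h (up to 0.251), and with GC content and length trends removed (0.228). Protein of HIF alpha subunits is set mainly by degradation and was not measured. Egln1 and Egln3, prolyl hydroxylases that mark HIF alpha, had -0.14 ± 0.05 and -0.19 ± 0.07 at 6 h against 0 h (adjusted p = 0.0647 and 0.0546). Against 1 h they fell, with -0.16 ± 0.05 for Egln1 (0.0377, or 0.295 without the block) and -0.26 ± 0.07 for Egln3 (0.013, or 0.768). The call for Egln1 was lost in 6 of the 9 leave-one-out fits (0 h replicates 1 and 3, 1 h replicates 2 and 3, 6 h replicates 1 and 3, up to 0.221), and that for Egln3 without the 1 h or the 6 h library of replicate 1 (up to 0.105).

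Of the 5 genes listed here as HIF targets, 4 were tested. From 0 h to 6 h, 2 of them rose and none fell, beside 17.4% and 17.5% of all tested genes. HIF factors also drive many genes of glycolysis, and those are listed under other roles. In those roles Slc2a1, Slc2a3, Hk2, Pfkfb3 and Eno2 fell, while over all 35 tested members 15 rose and 6 fell. Vegfa, the vascular growth factor, was at 32.3, 25.7 and 31.0 CPM at 0 h, 33.7, 25.6 and 33.8 CPM at 1 h and 45.3, 32.2 and 36.3 CPM at 6 h. It rose in each replicate after 1 h, and the groups overlapped at 32.2 and 32.3 CPM. The rise was 0.35 ± 0.07 against 0 h, a fold of 1.27 (adjusted p = 0.00119, or 0.304 without the block), and 0.29 ± 0.07 against 1 h (0.00421, or 0.409). Ero1l, an oxidase of protein folding in the endoplasmic reticulum, rose by 0.15 ± 0.05 (adjusted p = 0.0332, or 0.709 without the block), a call kept in 3 of the 9 leave-one-out fits and lost in each fit that lacked a library of 0 h or 6 h (up to 0.136). Bnip3, a mitophagy receptor, had -0.03 ± 0.08 at 6 h (adjusted p = 0.783). Ankrd37, with 17 to 48 counts per library, had -0.03 ± 0.34 (adjusted p = 0.964), and Car9 was too low to be tested.

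**Figure D3:**
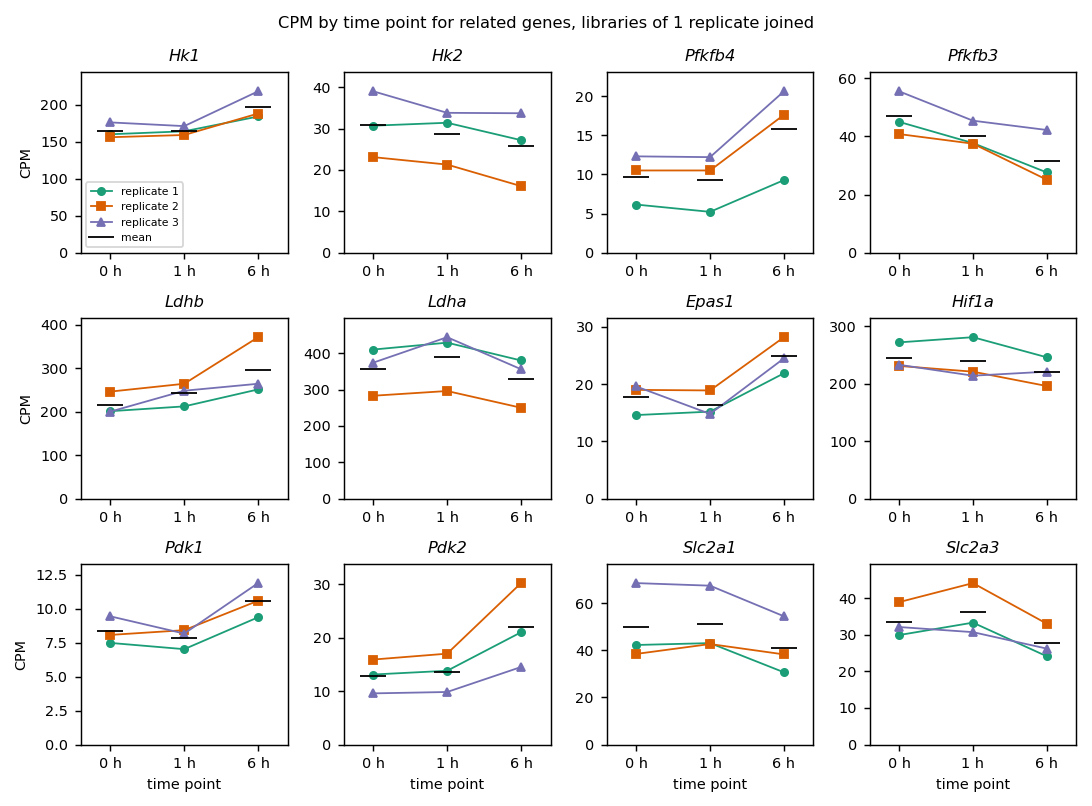
CPM (linear axes from 0) by time point for 12 members, with the libraries of each replicate joined and the mean of 3 as a black dash. Hk1, Pfkfb4, Ldhb and Epas1 end at means of 197, 15.8, 295 and 24.9 CPM, above their 0 h means of 164, 9.65, 215 and 17.7 CPM, while their relatives Hk2, Pfkfb3 and Hif1a end below theirs.

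Most members also differed between the replicate letters. Between letters at a fixed time, 27 of 35 members passed the test, compared with 56.8% of all genes. The distance between the highest and the lowest letter exceeded the absolute change from 0 h to 6 h in 25 of 35 members, beside 71.6% of all genes, and a range over 3 letters tends by construction to be larger than a difference between 2 times. It was largest for Pdk4, with a fold of 2.52 between replicates 3 and 1 (adjusted p = 2.4e-04), and for Pfkfb4, with a fold of 2.18 between the same replicates (1.1e-07). Egln3 was 1.90-fold higher in replicate 1 than in replicate 3 (5.1e-07) and Pdk2 1.83-fold higher in replicate 2 than in replicate 3 (1.7e-06). Hk2 and Slc2a1 were highest in replicate 3, with folds of 1.77 over replicate 2 and 1.65 over replicate 1. The 8 members that did not pass were Pfkm, Aldoa, Tpi1, Pgam1, Pkm, Slc16a3, Egln1 and Ankrd37. What the libraries of a letter share is not stated in the labels.

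**Figure D4:**
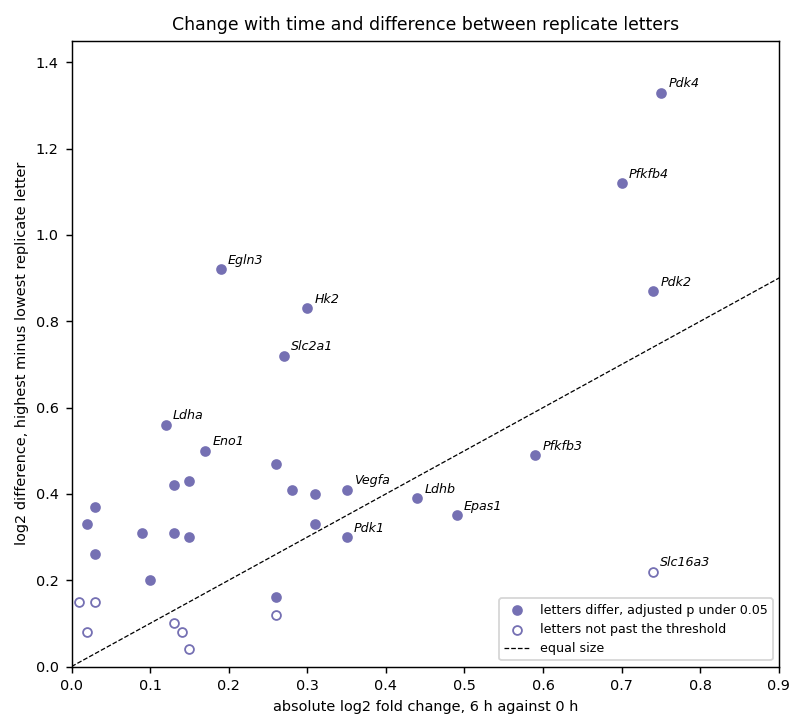
Log2 difference between the highest and the lowest replicate letter against the absolute log2 fold change from 0 h to 6 h for the 35 tested genes, filled where the letters differ at an adjusted p under 0.05. Of 35 points, 25 lie above the dashed line of equal size, beside 71.6% of all genes.

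Other genes of the same pathways were read from 3 lists of 35 further genes of glycolysis and pyruvate metabolism, 8 of the pentose phosphate pathway and 30 of the HIF pathway and hypoxia, of which 30, 8 and 28 were tested. These lists were also chosen with earlier results of these data known. At 1 h, 1 gene of the first list rose, none of the second passed, and 4 of the third rose and 1 fell. The shares called were 3.33%, 0% and 17.9%, beside 3.51% of all tested genes. From 0 h to 6 h, 9 rose and 3 fell in the first list, 1 rose and 2 fell in the second, and 8 rose and 7 fell in the third. The shares called were 40.0%, 37.5% and 53.6%, beside 34.9% of all tested genes, and the median log2 fold changes were 0.11, 0.03 and -0.08. From 1 h to 6 h, the counts were 5 and 5, 0 and 1, and 9 and 10, or 33.3%, 12.5% and 67.9%, beside 35.6% of all tested genes. Hk3, Pgk2, Pklr, Ldhc, Fbp2, Hif3a and Angptl4 were too low to be tested.

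Some of these hypoxia genes passed the test at 1 h. Cited2, which competes with HIF alpha for its coactivators, was at 7.69, 7.12 and 10.1 CPM at 0 h, 16, 13.9 and 16.7 CPM at 1 h and 7.79, 6.96 and 7.17 CPM at 6 h. Every 1 h library lay above all others, and the 1 h change was 0.91 ± 0.09 (adjusted p = 1.1e-04, or 0.210 without the block), followed by -1.08 ± 0.09 from 1 h to 6 h (3.1e-06, or 0.0151 without the block). Bhlhe40, a repressor induced by hypoxia and by many other signals, also rose and then fell, with 0.45 ± 0.06 at 1 h (8.7e-04, or 0.436 without the block) and -0.71 ± 0.06 from 1 h to 6 h (2.1e-06, or 0.0140). It was at 60.0, 58.1 and 57.8 CPM at 0 h and at 53.8, 43.2 and 49.8 CPM at 6 h, so every 6 h library ended below every 0 h library. Vhl, which recognises hydroxylated HIF alpha for destruction, was lower at 1 h by -0.30 ± 0.06 (0.0124, or 0.926 without the block). Ddit4, an inhibitor of mTORC1 induced by stress, rose by 0.24 ± 0.06 at 1 h (0.0367) and by 0.72 ± 0.06 at 6 h (1.3e-06), with 1.00 and 0.0605 without the block. Plod2, a collagen lysyl hydroxylase, rose by 0.21 ± 0.05 at 1 h (0.0417, or 1.00 without the block). The 1 h call of Vhl was lost without 0 h replicates 1 or 3 or 1 h replicate 1. That of Ddit4 was lost without 0 h or 1 h replicates 2 or 3 and without 6 h replicates 1 or 2, and that of Plod2 without any 0 h library, 1 h replicates 1 or 2 or 6 h replicate 1. With only the 6 libraries compared, Ddit4 and Plod2 also missed the threshold at 1 h (0.0637 and 0.0565), and Ddit4 did so with GC content and length trends removed (0.0685).

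At 6 h, the pyruvate dehydrogenase phosphatase gene Pdp2 rose, as did the kinases Pdk1, Pdk2 and Pdk4, whereas Pdk3 did not pass the test. Pdp2 was at 16.4, 12.7 and 17.7 CPM at 0 h, 18.2, 15 and 17.3 CPM at 1 h and 33.3, 24.6 and 33.4 CPM at 6 h, a log2 fold change of 0.97 ± 0.07 against 0 h (adjusted p = 4.0e-07, or 0.0311 without the block) and 0.84 ± 0.07 against 1 h (1.4e-06, or 0.0442). Pdp1, the other phosphatase, rose by 0.39 ± 0.07 at 1 h (0.0117, or 1.00 without the block, lost without 0 h replicates 2 or 3 or 1 h replicates 1 or 2) and fell back by -0.35 ± 0.07 from 1 h to 6 h (0.00289, or 0.293 without the block). Slc2a4, the insulin-responsive transporter GLUT4, had 0.470, 0.473 and 0.745 CPM before and 1.21, 1.16 and 1.23 CPM after 6 h, a rise of 1.1 ± 0.19 (7.4e-04, or 0.0446 without the block), in contrast to the members Slc2a1 and Slc2a3. Ndrg1, a hypoxia-induced gene of differentiation, rose by 1.21 ± 0.36 at a level of at most 1.15 CPM (0.0206, or 0.204 without the block), a call lost without the 0 h or the 6 h library of replicate 1 or 3. Gapdhs, the testis-type relative of Gapdh, and Pck2, the mitochondrial enzyme that makes phosphoenolpyruvate, rose by 0.83 ± 0.17 (0.00175) and 0.65 ± 0.06 (7.5e-06), and the muscle-type enolase gene Eno3 rose by 0.55 ± 0.13 (0.00527), with 0.0902, 0.322 and 0.171 without the block.

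Among the genes that fell from 0 h to 6 h, Pgam2, the muscle-type relative of Pgam1, changed by -0.92 ± 0.14, with mean levels of 2.34 and 1.22 CPM (adjusted p = 3.2e-04, or 0.0339 without the block). The hypoxia-induced peptide gene Adm had -0.72 ± 0.13 (1.0e-03, or 0.552 without the block), with 64.3, 88.2 and 50.9 CPM at 0 h and 42.8, 69.8 and 21.0 CPM at 6 h, so its groups overlapped. Hmox1, the inducible haem oxygenase, had -0.47 ± 0.06 (4.1e-05, or 0.240 without the block), and Slc16a7, a monocarboxylate transporter of neurons, -0.68 ± 0.14 (0.00185, or 0.123). Known hypoxia-induced genes were therefore found on both sides at 6 h, with Vegfa, Ddit4 and Ndrg1 higher and Adm and Hmox1 lower.

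**Figure D5:**
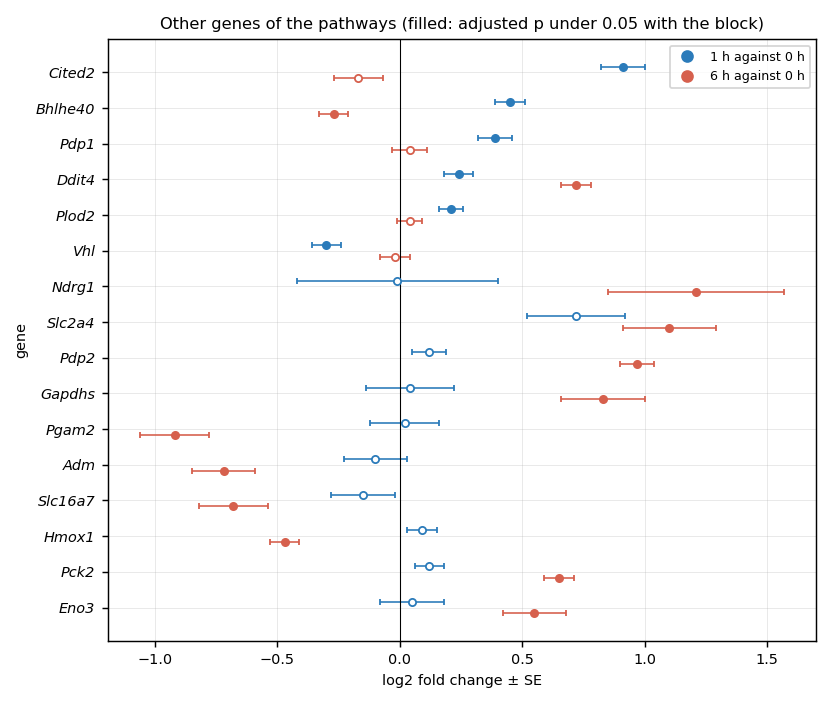
Log2 fold change with its SE at 1 h and at 6 h against 0 h for further pathway genes named by rule, filled at an adjusted p under 0.05 with the block. Cited2 is at 0.91 at 1 h and back at -0.17 at 6 h, whereas Pdp2 is at 0.12 at 1 h and 0.97 at 6 h.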

How the data were processed

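Gene counts of 9 mRNA libraries, 3 for each of the time points 0 h, 1 h, and 6 h, were used as deposited by the authors. The submitters' processing notes name STAR 2.5.3a, FastQC, DESeq2 1.22.1 and the mouse build mm10 (GRCm38), and the strand setting of the counting is not given in the sources used here. The deposited counts are whole numbers per gene and not normalized. Symbols and exon lengths came from GENCODE M21, which held 48144 of the 48526 identifiers, and promoter windows from RefSeq on GRCm38.p6.

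Counts were tested with edgeR 4.0.16 (R 4.3.3) by its quasi-likelihood test after filterByExpr (minimum count 10, minimum total 15) and TMM scaling, with time point and replicate number as terms over all 9 libraries and Benjamini-Hochberg adjustment over 18858 genes at a threshold of 0.05. The block was used because deviations from the time point means correlated between same-numbered libraries (r from 0.733 to 0.8 in 9 pairs, against -0.462 to -0.314 in 18 pairs with other numbers). What libraries of the same number share is not stated, nor whether they came from separate animals, so that p-values measure the spread between these samples only. No libraries were duplicates. The smallest chi-square per degree of freedom over all pairs of libraries was 13.6, between the 0 h and 1 h libraries of replicate 2. CPM are counts divided by the TMM-scaled library size, times 1e+06.

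Members, comparison lists and tests were chosen with earlier results of these data known. Full statistics were given for up to 10 called members per comparison with the largest change and the same direction in 3 of 3 replicates, for the most abundant member of each role, and for up to 5 called genes per direction from the comparison lists. 1 gene of the comparison lists that met this rule is counted in its list but not reported here. Other members were described by role. Ratios between related genes were picked after the values were seen. Alternatives were fits without the block, DESeq2 1.42.0 with and without it, other scalings and filters, removal of GC content and length trends, fits on the 6 libraries compared, leaving out each library and a threshold of 0.01. The tests were checked on simulated data, drawn with the replicate differences of these libraries. That check therefore cannot decide whether the block is the right choice. Python 3.11.15 (pandas 2.3.3, numpy 2.4.6, matplotlib 3.10.9) was used for summaries and plots.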

Additional observations from a re-analysis of the deposited data

How the results depend on the processing

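The results depended most on the pairing. With no replicate block, edgeR called 0 members higher and 0 lower at 6 h against 0 h and at 6 h against 1 h, and DESeq2 without the block called 2 higher and 0 lower in each, as the common biological variation went from 6.27% to 27.7%. At 1 h, 1 member was higher under DESeq2 with the block, 3 with no filter on low counts and 1 with GC content and length trends removed, and 1 was lower with no filter. Removal of these trends also gave 11 lower members from 1 h to 6 h. Leaving out each library gave 0 to 0 higher and 0 to 1 lower at 1 h, 11 to 18 higher and 3 to 10 lower at 6 h against 0 h, 7 to 10 higher and 5 to 9 lower at 6 h against 1 h, and 24 to 29 members that differed between letters. Only log2 fold changes that were not called turned sign, namely Slc2a1 (-0.03 to 0.10 over the fits that left out a library), Hif1a (-0.08 to 0.02, and 0.03 with GC content and length trends removed) and Vegfa (-9.7e-05 to 0.10) at 1 h, and Gpi1 (-0.06 to 0.05) and Pkm (-0.07 to 0.05) at 6 h against 1 h, both 0.02 with scaling by library totals. Of 1457 alternative values for 77 gene and comparison values, 1217 kept their direction and their side of the threshold, 218 lost the call, 12 gained it and 10 turned sign. The causes of these changes were not tested. Slc16a3, Pdk4, Ankrd37 and Car9 were limited by their low counts.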
